A study of Mus musculus with 2 samples.

Results

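The 10 genes followed here mark or drive T follicular helper (Tfh) cells, and were measured in RNA from mouse CD4+ T cells grown under T helper 17 (Th17) conditions. They are the factor genes Bcl6, Ascl2, Tox and Tox2, the coactivator gene Pou2af1, the receptor genes Cxcr5, Icos, Pdcd1 and Slamf6, and the adaptor gene Sh2d1a. They were taken as rows of the deposited expression table whose Entrez identifier maps to these symbols. Of the 10 genes, 9 had such a row among 13056 rows with an Entrez identifier, and Ascl2 was not analysed here. All 9 reached 1 FPKM (fragments per kilobase of transcript, scaled to library size) in at least 1 library.

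The T cells came from wild type C57BL/6 mice aged 6 to 8 weeks and were cultured for 48 h with antigen presenting cells (APCs). The APCs were wild type in the control culture (WT-APC) and carried an OX40L transgene in the other (OX40L-TG). OX40L binds OX40, a costimulatory receptor on activated T cells. Each condition had 1 library, so the values below compare 2 libraries with no replicate check and no test between conditions. Neither the type of APC, nor the promoter of the transgene, nor the number of mice behind each culture is given in the sources used here.

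Tfh cells are the CD4+ T cells that enter B cell follicles and help B cells to form germinal centres. BCL6 is their lineage-defining repressor, and its antagonist is the repressor Blimp-1, the product of Prdm1. CXCR5 draws the cells towards the follicle, ICOS and PD-1 receive signals from B cells and other APCs, and SLAM family receptors act through the adaptor SAP, the product of Sh2d1a. Th17 and Tfh cells share several regulators, among them c-MAF, BATF, IRF4 and the cytokine IL-21.

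The promoter bases of the pair of genes that differed most, Pou2af1 and Slamf6, and of the lineage factor gene Bcl6 are shown so that the loci can be identified. Each run holds the 250 bases before the RefSeq transcription start (GRCm38.p6), 5′ to 3′ on the strand of the gene. The RefSeq start of Slamf6 lies inside the locus that the expression table prints for it, 2755 bases from the edge, and that of Bcl6 lies 240 bases outside its printed locus. Capitals mark matches to the motifs named after the sequences.
Pou2af1, chr9:51213440-51213689, plus strand: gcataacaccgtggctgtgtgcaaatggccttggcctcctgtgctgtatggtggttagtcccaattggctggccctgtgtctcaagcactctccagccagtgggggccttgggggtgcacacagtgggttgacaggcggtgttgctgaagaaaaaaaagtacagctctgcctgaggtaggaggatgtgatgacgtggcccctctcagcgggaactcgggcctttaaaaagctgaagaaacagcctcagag
Slamf6, chr1:171917212-171917461, plus strand: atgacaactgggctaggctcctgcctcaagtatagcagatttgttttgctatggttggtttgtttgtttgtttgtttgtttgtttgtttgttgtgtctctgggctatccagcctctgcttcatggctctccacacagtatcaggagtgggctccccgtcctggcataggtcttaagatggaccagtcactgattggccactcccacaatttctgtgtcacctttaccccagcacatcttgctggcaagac
Bcl6, chr16:23988853-23989102, minus strand: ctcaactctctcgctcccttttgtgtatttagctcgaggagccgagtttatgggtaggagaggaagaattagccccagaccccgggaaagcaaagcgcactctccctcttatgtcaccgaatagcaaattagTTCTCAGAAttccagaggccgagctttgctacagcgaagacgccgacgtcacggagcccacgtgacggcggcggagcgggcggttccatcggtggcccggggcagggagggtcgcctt

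Both strands were searched for the octamer ATGCAAAT, which POU2F factors and their coactivator bind, the E-box CAGCTG, the AP-1 site TGANTCA, the STAT site TTCNNNGAA, the NFAT core GGAAAA and the TCF site CTTTGAT. RefSeq windows were found for 6 of the 10 genes, namely Pou2af1, Slamf6, Bcl6, Pdcd1, Tox2 and Ascl2. The STAT letters occurred in the Bcl6 window, 118 to 110 bases before the start, and in 7.18% of 27025 promoters of the same length. The Tox2 window held the TCF letters (3.23% of promoters) and the NFAT letters (20.6%). The octamer (1.61%), the E-box (12.8%) and the AP-1 letters (6.87%) were in none of the 6 windows. These matches describe letters and not bound sites.

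All 9 genes were lower in the OX40L-TG library than in the WT-APC library, by between 1.10-fold for Cxcr5 and 5.32-fold for Pou2af1. On the log2((OX40L-TG FPKM + 1)/(WT-APC FPKM + 1)) scale, which understates changes of low genes, 4 of 9 were at least 2-fold lower and none was higher. These were Pou2af1, Slamf6, Icos and Tox. The same limits were applied to every annotated gene that reached 1 FPKM in 1 library or both. Of these 10645 genes, 1.32% were past 2-fold on the lower side and 2.26% on the higher side. The median change of the 9 genes was -0.84, against 0.11 for all genes. All 9 lay below 0, as did 31.7% of all genes. The median of all genes became -0.05 when the library totals were set equal. That scaling multiplied every OX40L-TG value by 0.883, so the 9 genes could not change direction under it. In bulk RNA, fewer cells of a type and less RNA per cell cannot be told apart.

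**Figure D1:**
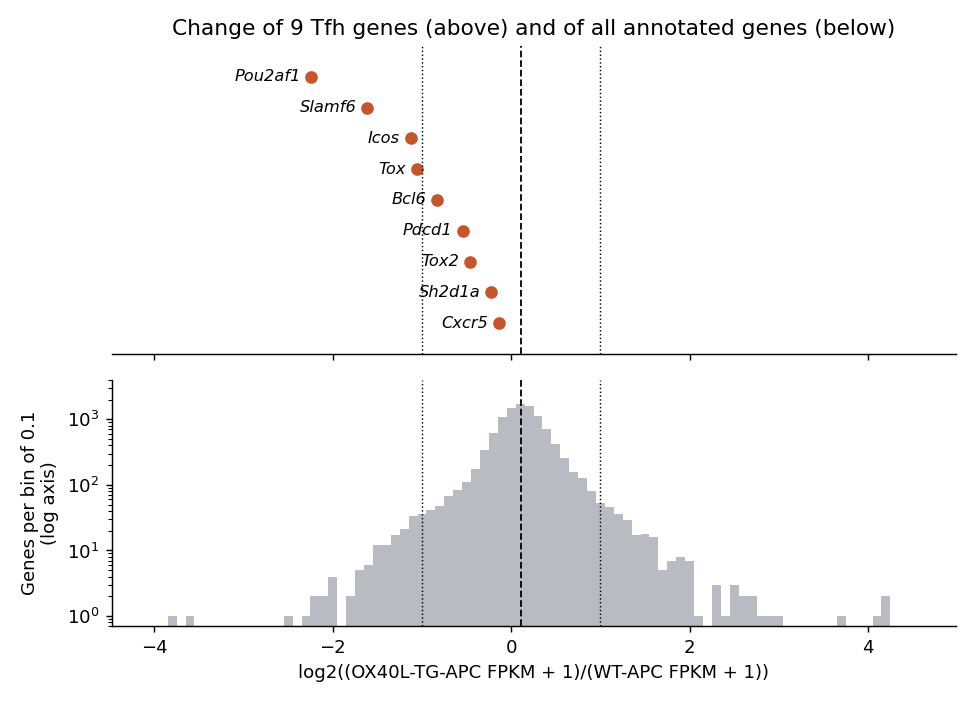
The upper panel shows the log2((OX40L-TG FPKM + 1)/(WT-APC FPKM + 1)) of each of the 9 Tfh genes as a point, and the lower panel shows the number of genes per bin for 10645 annotated genes on a log axis. The dashed line is the median of all genes (0.11), dotted lines mark 2-fold, and all 9 points lie left of the dashed line, from -2.24 for Pou2af1 to -0.13 for Cxcr5.

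Bcl6 (Entrez 12053, chromosome 16, 23965051 to 23988612) stood at 18.6 FPKM in the WT-APC library and 10.01 FPKM in the OX40L-TG library. The ratio was 0.537, with a 95% exact Clopper-Pearson interval of 0.495 to 0.582 from about 1564 and 963 fragments. Such intervals cover counting error only, and not variation between cultures. The log2 change of -0.84 did not reach 2-fold and took rank 206 from the lowest among the 10645 genes.

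The TOX proteins are nuclear factors with an HMG box, and TOX2 is known to promote Tfh development. Tox (Entrez 252838, chromosome 4, 6687385 to 6990723) stood at 6.54 FPKM with WT APCs and 2.61 FPKM with OX40L-TG APCs, a ratio of 0.400 (0.347 to 0.462). Its log2 change was -1.06, which became -0.60, short of 2-fold, with a pseudocount of 5. Tox2 (Entrez 269389, chromosome 2, 163225453 to 163397993) was the lowest of the 9 in both libraries, at 1.53 and 0.835 FPKM. Its ratio of 0.547 rested on about 84 and 53 fragments and had the widest interval of the group, 0.382 to 0.785. Tox4, a more widely expressed relative, stood at 41.7 and 42.8 FPKM, and its log2 change of 0.03 became -0.09 with the median ratio of well-expressed genes set to 0. Tox3 was not analysed here.

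Pou2af1 encodes OCA-B (also called BOB.1), a coactivator of octamer-binding factors that is best known from B cells and is also used by Tfh and memory CD4+ T cells. Pou2af1 (Entrez 18985, chromosome 9, 51213689 to 51240079) stood at 33.0 FPKM with WT APCs and 6.21 FPKM with OX40L-TG APCs. It was 5.32-fold lower (4.79 to 5.92), the 8th lowest log2 change of all genes at -2.24. The coactivator binds DNA with POU2F1 (OCT1) or POU2F2 (OCT2). Pou2f1 stood at 5.79 and 6.11 FPKM, for a ratio of 1.06 whose interval (0.972 to 1.14) included 1. Pou2f2, which is highest in B cells, stood at 4.16 and 1.96 FPKM, for a ratio of 0.471 (0.400 to 0.551) and a log2 change of -0.80.

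The follicle homing receptor gene Cxcr5 (Entrez 12145, chromosome 9, 44511786 to 44526421) differed least. It stood at 22.0 FPKM with WT APCs and 19.95 FPKM with OX40L-TG APCs, a ratio of 0.908 (0.842 to 0.978). Its log2 change of -0.13 held rank 1789 from the lowest. Pou2af1 and Slamf6 were thus above Cxcr5 in the WT-APC library and below it in the other.

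ICOS and PD-1 belong to the CD28 family, ICOS as a costimulator and PD-1 as an inhibitory receptor. Icos (Entrez 54167, chromosome 1, 60977913 to 61000320) was the most abundant of the 9 with WT APCs, at 67.0 FPKM, and stood at 30.1 FPKM with OX40L-TG APCs. The ratio was 0.450 (0.429 to 0.471) and the log2 change -1.13. Pdcd1, which encodes PD-1 (Entrez 18566, chromosome 1, 94038304 to 94052553), stood at 38.2 and 26.0 FPKM, for a ratio of 0.680 (0.633 to 0.730) and a log2 change of -0.54, short of 2-fold.

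Icos lies beside Cd28 and Ctla4 in a stretch of 254 kb on chromosome 1, and these neighbours did not share 1 direction. Cd28, the primary costimulatory receptor gene, stood at 217 and 142 FPKM (WT-APC first), for a ratio of 0.653 (0.640 to 0.666). Ctla4, the gene of its inhibitory counterpart, stood at 504 and 597 FPKM, for a ratio of 1.19 (1.16 to 1.21). The family member Btla, on chromosome 16, stood at 79.3 and 110.9 FPKM, for a ratio of 1.40 (1.35 to 1.45). With the totals set equal, the log2 changes of Ctla4 and Btla remained above 0, at 0.07 and 0.30.

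SLAMF6 (Ly108) is a self-binding receptor of T and B cells that signals through SAP. Slamf6 (Entrez 30925, chromosome 1, 171914707 to 171943868) stood at 28.0 FPKM with WT APCs and 8.45 FPKM with OX40L-TG APCs. It was 3.31-fold lower (3.00 to 3.64), with a log2 change of -1.62 and rank 24 from the lowest. Sh2d1a, the gene of SAP (Entrez 20400, chromosome X, 42502607 to 42522075), stood at 50.1 and 42.7 FPKM, for a ratio of 0.853 (0.780 to 0.932). The adaptor was thus the most abundant of the 9 with OX40L-TG APCs, where Icos had led with WT APCs.

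Slamf6 lies at one end of 7 neighbouring SLAM family genes in a stretch of 385 kb on chromosome 1, and these did not share 1 direction either. Cd84, next to Slamf6, stood at 18.3 and 11.6 FPKM, for a ratio of 0.638 (0.588 to 0.691), short of 2-fold. Slamf7, the gene of a receptor found on many activated lymphocytes, was past 2-fold in the other direction, at 2.24 FPKM with WT APCs and 6.43 FPKM with OX40L-TG APCs, a ratio of 2.87 (2.46 to 3.36). Its log2 change of 1.20 became 0.66, short of 2-fold, with a pseudocount of 5. Slamf1 (16.1 and 17.7 FPKM), Cd48 (74.4 and 70.0 FPKM) and Ly9 (46.6 and 49.7 FPKM) had log2 changes between -0.09 and 0.13. The signs for Slamf1 and Ly9 turned with equal totals, to -0.04 and -0.08. Cd244a was under 1 FPKM in both libraries. Fyn, the kinase recruited by SAP, stood at 56.9 and 47.4 FPKM, and Sh2d1b1, the gene of the related adaptor EAT-2, was under 0.1 FPKM in both.

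**Figure D2:**
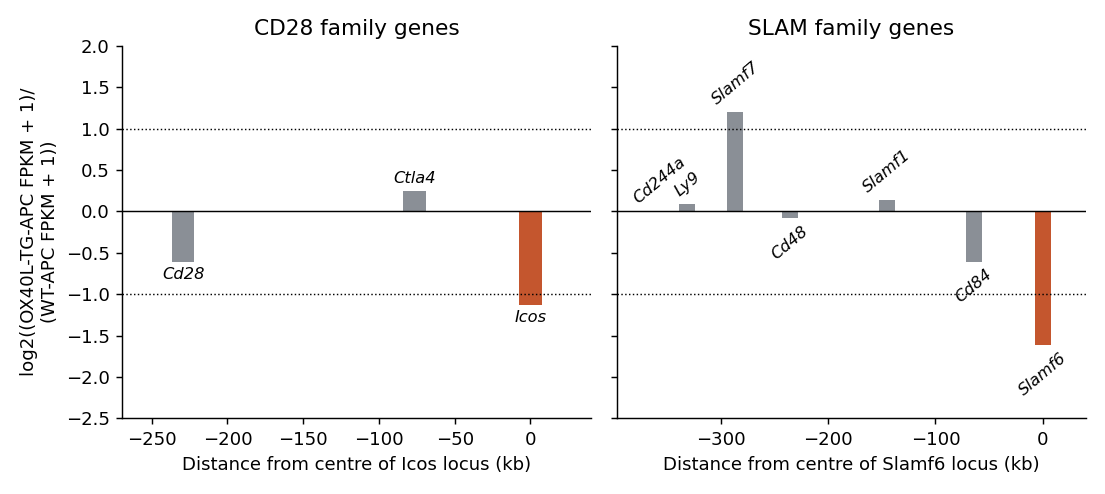
Bars show the log2((OX40L-TG FPKM + 1)/(WT-APC FPKM + 1)) of the CD28 family genes beside Icos (left) and of the SLAM family genes beside Slamf6 (right), against the distance in kb from the centre of the Icos or Slamf6 locus. The Tfh genes are in orange and dotted lines mark 2-fold. Slamf6 (-1.62) and Slamf7 (1.20) lie in the same stretch with opposite signs, and Cd244a, which was under 1 FPKM, has no visible bar.

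The order of the 9 levels differed between the libraries. With WT APCs it ran Icos, Sh2d1a, Pdcd1, Pou2af1, Slamf6, Cxcr5, Bcl6, Tox and Tox2, from 67.0 to 1.53 FPKM. With OX40L-TG APCs it ran Sh2d1a, Icos, Pdcd1, Cxcr5, Bcl6, Slamf6, Pou2af1, Tox and Tox2, from 42.7 to 0.835 FPKM. No neighbours in either order had overlapping counting intervals. Pou2af1 held place 4 with WT APCs and place 7 with OX40L-TG APCs, and Cxcr5 held places 6 and 4. The levels of the 9 genes summed to 265 FPKM with WT APCs and 147 FPKM with OX40L-TG APCs.

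**Figure D3:**
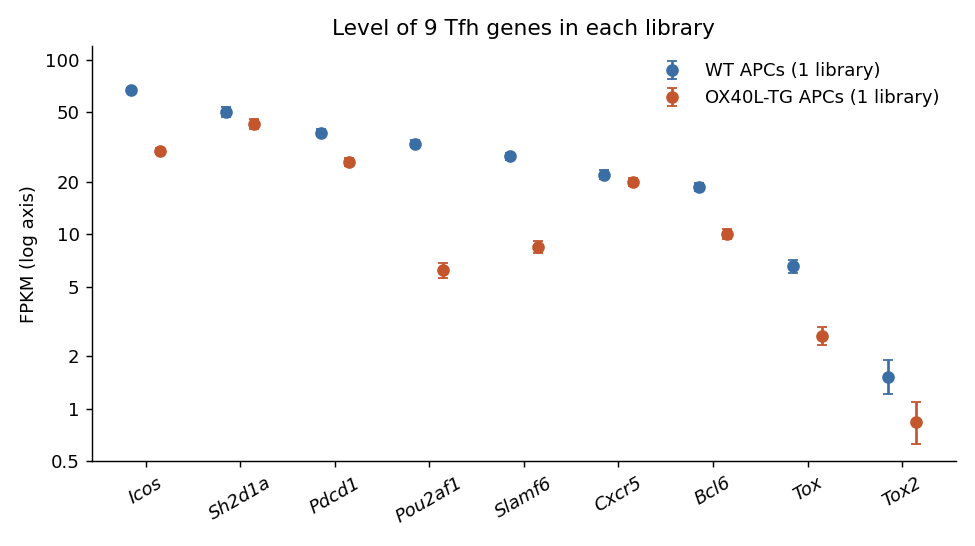
Points show the FPKM of each of the 9 Tfh genes on a log axis, in blue for the WT-APC library and in orange for the OX40L-TG library, with 95% exact Poisson intervals of the estimated fragments, which are smaller than the point for abundant genes. Every orange point lies below its blue point, with the widest gap for Pou2af1 (33.0 and 6.21 FPKM) and the narrowest for Cxcr5 (22.0 and 19.95 FPKM).

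The authors' deposited table of their own comparison lists 398 genes, of which 3 are among the 9. It gives log2 ratios of -2.38 for Pou2af1 and -1.69 for Slamf6, each with a p-value of 5e-05, and -1.12 for Icos with a p-value of 0.0034. These p-values compare the libraries, not the conditions. Tox and the other 5 genes with a row were not listed in the authors' deposited table. Its largest p-value is 0.0499 and its smallest absolute log2 ratio is 1.00, so genes short of 2-fold are absent whatever their p-value. The plain ratios of these other 5 genes ran from 0.537 to 0.908, short of 2-fold. That of Tox was 0.400, past 2-fold, so the fold limit does not account for its absence. Whether Tox missed a p-value limit or was not tested there is not given, so it lacks the listing that the other 3 lower genes have. No p-value is known here for the unlisted genes.

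Further genes of the Tfh programme were read from lists by role, 101 genes beside the 10. Of these, 97 had a row and 90 reached 1 FPKM in either library. Among the 90, 6 were at least 2-fold lower and 2 at least 2-fold higher, against 1.32% and 2.26% of all genes, and their median change was 0.03, against 0.11 for all genes. The same shares of all genes apply to the lists by role below. Those lists are short, so a count of none or 1 says little about a role. The 6 lower genes included Maf, Foxp1, Spib, Il10 and S1pr1, and the 2 higher ones were Id3 and Slamf7. With a pseudocount of 5, Maf and Id3 were still past 2-fold, at -1.26 and 1.29, and Foxp1 (-0.94), Spib (-0.67), Il10 (-0.97) and S1pr1 (-0.96) were not.

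Among 16 transcription factor genes tied to Tfh cells, 1 was lower, 1 was higher and 14 were neither, with a median change of 0.11. Maf, whose product drives Il21 and Cxcr5, was the lower one, at 184 against 74.3 FPKM, a ratio of 0.403 (0.394 to 0.411). Id3, the gene of an inhibitor of E proteins, was the higher one, at 17.7 against 50.4 FPKM (ratio 2.84, 2.58 to 3.14). Batf stood at 185 and 165 FPKM and Tcf7, the gene of TCF-1, at 158 and 134 FPKM, with ratios of 0.889 and 0.848. Lef1, the gene of a partner of TCF-1, stood at 61.1 and 97.8 FPKM (ratio 1.60, 1.55 to 1.66). Irf4 stood at 401 and 418 FPKM, and its log2 change of 0.06 became -0.07 with the median ratio set to 0.

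Among 12 antagonists of the Tfh fate, 1 was lower, none was higher and the median change was 0.00. The log2 changes ran from -1.23 to 0.70, and the summed level was 689 FPKM with WT APCs and 812 FPKM with OX40L-TG APCs. The highest ratio was 1.63, whereas the genes of this list named here all had ratios under 1. Prdm1, the gene of Blimp-1, stood at 1.18 and 1.14 FPKM, for a ratio of 0.961 whose interval (0.742 to 1.25) included 1. Foxp1, the gene of a factor that restrains Tfh differentiation, was the lower one, at 19.3 against 7.63 FPKM, and the locus printed for it holds 5 other genes. Klf2, another antagonist gene, is named after its values were seen. It stood at 18.7 and 9.07 FPKM, for a ratio of 0.485 (0.431 to 0.543), and its log2 change of -0.97 fell short of 2-fold. The authors' deposited table gives Klf2 a log2 ratio of -1.01 with a p-value of 0.03345. Foxo1, the gene of another such factor, stood at 43.9 and 34.7 FPKM. Rc3h1, which encodes Roquin-1, a protein that lowers Icos mRNA, stood at 14.0 and 12.2 FPKM (ratio 0.874, 0.835 to 0.915). None of 9 genes of BCL6 corepressors and related partners reached 2-fold (median 0.03).

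IL-21 is the main cytokine of Tfh help and is also made by Th17 cells. Il21 stood at 134.5 and 191 FPKM, for a ratio of 1.42 (1.38 to 1.47), opposite in sign to the 9 Tfh genes. Il4, another cytokine of Tfh help, was near the limit of detection, at 0.273 and 0.318 FPKM or about 4 and 5 fragments. Il10 stood at 36.7 and 16.3 FPKM, the 1 gene of 7 kept cytokine and receptor genes past 2-fold. None of 10 surface molecules of help reached 2-fold in either direction on the log2 scale with a pseudocount of 1. Tigit, the gene of an inhibitory receptor, is named after its values were seen. It stood at 2.66 and 1.04 FPKM, for a plain ratio of 0.392 (0.236 to 0.631) and a log2 change of -0.84, and the locus printed for it holds 9 other genes. The 10 surface molecule genes had log2 changes from -0.84 to 0.89, with a median of 0.05, and Tigit had the lowest. Among the 10, Cd40lg, the gene of CD40 ligand, stood at 4.39 and 4.32 FPKM (ratio 0.983, 0.768 to 1.25).

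Of 10 receptor and adhesion genes that set the position of T cells in lymphoid tissue, 2 were at least 2-fold lower, against 1.32% of all genes. Among these S1pr1, the gene of the receptor for exit from lymph nodes, stood at 55.6 and 26.0 FPKM. None of 10 genes of ICOS and PD-1 signalling reached 2-fold (median 0.06).

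Genes of ligands for ICOS, PD-1 and CXCR5 were at or below 5.02 FPKM in both libraries. Icosl stood at 1.01 and 0.603 FPKM. The PD-1 ligand genes Cd274 (2.98 and 5.02 FPKM) and Pdcd1lg2 (1.58 and 1.81 FPKM) had ratios of 1.68 (1.44 to 1.96) and 1.15 (0.819 to 1.63). Cxcl13, the ligand gene of CXCR5, was at about 1 fragment with WT APCs and is listed at 0 with OX40L-TG APCs.

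**Figure D4:**
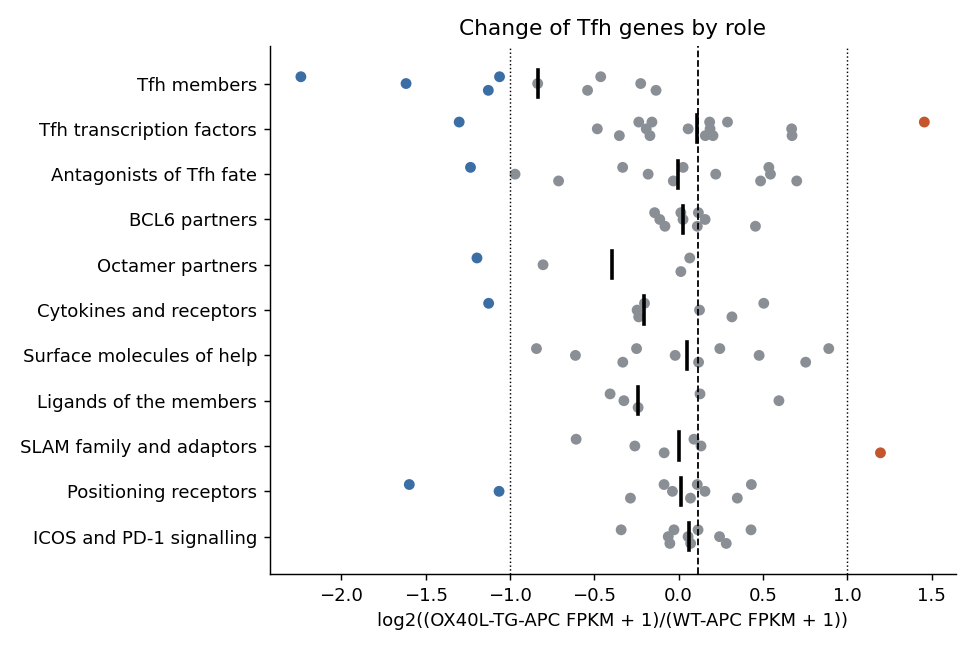
Each point is the log2((OX40L-TG FPKM + 1)/(WT-APC FPKM + 1)) of 1 gene with at least 1 FPKM in either library, by role, with the 9 Tfh genes in the top row and left out of the other rows. Bars are medians, the dashed line is the median of all genes (0.11), dotted lines mark 2-fold, and genes past it are blue (lower) or orange (higher). The median of the top row is -0.84, and those of the transcription factor and antagonist rows are 0.11 and 0.00.

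B cells express Bcl6, Cxcr5, Pou2af1 and Slamf6 too, and their own markers had low ratios in this comparison. Of 13 B cell markers 11 reached 1 FPKM, 6 of them were at least 2-fold lower and none was higher, against 1.32% and 2.26% of all genes. Their plain ratios ran from 0.252 to 0.547 with a median of 0.386, and the summed level of all 13 was 69.3 FPKM with WT APCs and 28.5 FPKM with OX40L-TG APCs. None of the 13 was at 0. Cd79a, which encodes a chain of the B cell receptor complex, stood at 6.52 and 2.20 FPKM. Cd79b, the gene of the partner chain, stood at 11.9 and 6.40 FPKM, the latter above the 6.21 FPKM of Pou2af1. T cell markers were far more abundant in both libraries, with 10 genes between 86.3 and 322 FPKM with WT APCs and 86.5 and 322 FPKM with OX40L-TG APCs, and Cd4 at 201 and 246 FPKM.

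The ratio of Pou2af1, 0.188, was below that of all 11 B cell markers, whereas that of Cxcr5 was above all 11. Slamf6 (0.302) had 1 marker below it and Bcl6 (0.537) had 9. Among the other 5 genes, whose expression in B cells was not examined here, Icos and Tox were at least 2-fold lower, and the median change was -0.54. Their ratios ran from 0.400 for Tox to 0.853 for Sh2d1a. The part of B cell RNA in these differences was not tested.

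Markers of myeloid cells were read in the same way. Of 7 monocyte and macrophage markers 3 reached 1 FPKM and 2 were at least 2-fold lower, against 1.32% of all genes. The summed levels of the 7 were 10.5 and 3.68 FPKM. Of 6 dendritic cell markers 1 reached 1 FPKM, the sums were 4.79 and 2.15 FPKM, and 2 were listed at 0 with OX40L-TG APCs.

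**Figure D5:**
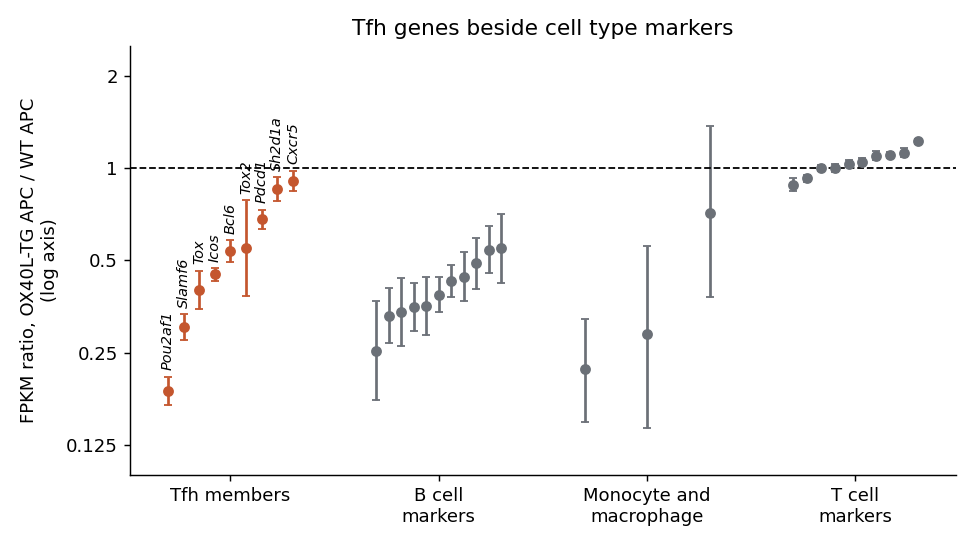
Points show the plain FPKM ratio, OX40L-TG over WT-APC, on a log axis, with 95% exact intervals for counting error, for the 9 Tfh genes and for B cell, monocyte and macrophage, and T cell markers with at least 1 FPKM in either library. The dashed line marks a ratio of 1. The Tfh genes spread from 0.188 to 0.908, the B cell markers from 0.252 to 0.547, and the T cell markers lie between 0.882 and 1.22.

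The table also holds features whose identifier is not a plain Entrez number, and 16 of them are printed at the same locus as 1 of the 9 genes. All 16 were lower with OX40L-TG APCs, but they are not separate observations, as 9 lie at the Tox locus and may overlap its exons. Of these, 14 carry identifiers that start with n, which the file does not explain, and 2 were assembled features, at the Tox2 and Slamf6 loci. Among all features with n identifiers that reached 0.5 FPKM in either library, 71.1% were lower with OX40L-TG APCs and the median ratio was 0.820, and of such assembled features 70.2% were lower. Many of the 16 reached 0.5 FPKM only with WT APCs, as given below, so their shared direction is not read as a result.

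The Tox locus held 9 of these features, from 0.610 to 1.09 FPKM with WT APCs and from 0.0685 to 0.243 FPKM with OX40L-TG APCs. Their ratios ran from 0.106 to 0.279, beside the 0.400 of Tox itself. These 9 features reached the 0.5 FPKM limit only with WT APCs, as did the feature at the Cxcr5 locus and 1 of the 2 at the Tox2 locus. A feature that reaches a limit in only 1 library is by that lower in the other. The direction and low ratios of these features are therefore not read as a result about the genes. The Bcl6 locus held 3, with ratios of 0.433 to 0.474, beside the 0.537 of Bcl6. At the Slamf6 locus an assembled feature, which also carries the Entrez number of Slamf6, stood at 3.72 and 1.83 FPKM (ratio 0.493), and at the Cxcr5 locus 1 feature stood at 0.761 and 0.0617 FPKM. The Tox2 locus held 2, with ratios of 0.446 and 0.525. Which bases these features cover inside the printed loci is not given in the table, so they may overlap the exons of the named gene.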

How the data were processed

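RNA from mouse CD4+ T cells of both cultures was sequenced as Illumina TruSeq libraries from 1 µg of total RNA, per the labels' protocols. The authors deposited FPKM values per gene, made with TopHat2 and Cuffdiff and the mm9 build, per the submitters' processing notes. The gene models, the strand setting and the tool versions are not given in the sources used here. The authors' comparison table holds log2 ratios, p-values and its own FPKM, per the file headers, and its WT-APC values run lower (median factor 0.976) than in the full table, which was used here. Printed loci overlapped the GRCm38 gene for 99.7% of 13030 Entrez identifiers matched to RefSeq symbols, so coordinates follow GRCm38 and span exons and introns together. The printed loci of Bcl6, Cxcr5, Tox and Slamf6 each overlap 1 other annotated gene, and that of Tox2 overlaps 2. Those of Icos, Pdcd1, Sh2d1a and Pou2af1 overlap no other. Some further genes named here share their loci too, such as Pou2f1 with 4 others.

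Depth was not stated. Values under 0.3 FPKM of 335 genes with 1 RefSeq transcript of at least 1500 bases step in single fragments, which gave about 23800000 (WT-APC) and 27300000 (OX40L-TG) fragments. At the chosen depth ratio 77.6% of these genes had whole-number fragment ratios within 0.2%, against 9.85% at a typical ratio. Fragments per gene used the median length of its RefSeq-matched GENCODE transcripts and are rough. Changes are log2 ratios of FPKM with a pseudocount of 1. Genes under 1 FPKM in both libraries were left out, and 2-fold was the threshold. With 1 library per condition no test was made, and scripts were tested on simulated data. Tools were Python 3.11.15, pandas 2.3.3 and scipy 1.17.1.

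The 10 genes and the lists were chosen with earlier results of these data known. The text names the 10 genes, each further programme gene past 2-fold (1 is not reported here) and a list of regulators, ligands and family members set with the lists. Klf2, Tigit, Cd79a and Cd79b were named after their values were seen. Alternatives changed the pseudocount, the minimum, the scaling and the threshold.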

Additional observations from a re-analysis of the deposited data

How the results depend on the processing

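The 9 Tfh genes with a row stayed lower with OX40L-TG APCs in 36 of 36 values. The settings were pseudocounts of 0.1 and 5, the median ratio of well-expressed genes set to 0, and equal totals. This outcome was fixed in advance, as a pseudocount cannot turn a sign. Both scalings multiplied the OX40L-TG values by less than 1 (0.915 and 0.883), which can only lower them. The direction was therefore not tested by these settings. The number at least 2-fold lower was 4 under each of these settings and both other minimums, except for 3 with a pseudocount of 5, which took out Tox, and it was 5 at a 1.5-fold threshold. None was higher under any of them. The median change of the 9 was -0.60 with a pseudocount of 5 and -0.997 with equal totals. Without Bcl6, Cxcr5, Pou2af1 and Slamf6, a choice made after seeing the data, 2 of 5 were at least 2-fold lower and the median was -0.54. Of the 90 further programme genes, 2 were lower and 1 was higher with a pseudocount of 5, where all genes gave 0.366% and 0.949%. At 1.5-fold, 12 were lower and 8 higher, where all genes gave 3.38% and 7.21%. Of all calls, 63.1% were higher as deposited, 51.8% with the median ratio set to 0, 47.3% with equal totals. Over all genes, the counts of 141 lower and 241 higher became 251 and 405 with a pseudocount of 0.1, 39 and 101 with 5, and 360 and 767 at 1.5-fold. The causes were not tested. No paired analysis was possible because each condition had 1 library, and leaving out a replicate was not possible for the same reason. The least certain of the 9 was Tox2, which had the fewest fragments.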
